A study of Sus scrofa with 9 samples.

Results

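The 10 genes described here encode the mRNA export receptor NXF1, its partners NXT1 and NXT2, the adaptor ALYREF, the ATPase DDX39B and the THO subunits THOC1, THOC2, THOC5, THOC6 and THOC7. They were taken by symbol from a table of read counts for 27339 pig genes, and all 10 were found there and passed the filter on low counts. NXF1 was higher with both transgenes than with GFP, 2.01-fold with human DUX4 and 15.8-fold with pig DUXC. ALYREF moved the same way, and each of the other 8 genes differed between groups by less than 2-fold.

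Messenger RNA leaves the nucleus as a particle of RNA and proteins. The TREX complex, made of the THO subunits, the helicase DDX39B (UAP56) and adaptors such as ALYREF, is loaded on the RNA while it is transcribed, spliced and capped. The adaptors then hand the RNA to NXF1 bound to NXT1, and this dimer carries it through the nuclear pore.

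The cells were primary Gottingen pig myoblasts, precursors of skeletal muscle, at passages 7 to 9. They carried a doxycycline-inducible transgene, either human DUX4, pig DUXC or GFP, with 3 libraries for each, and the GFP cells served as controls. DUX4 and DUXC are related double homeobox transcription factors, and DUX4 is the gene misexpressed in facioscapulohumeral muscular dystrophy. Every group, GFP included, was in 1 µg/mL doxycycline for 16 h in F-10 medium with fetal bovine serum and chicken embryo extract, so that no group shows the cells without the drug. A stranded mRNA kit was used. Transgene levels are not analysed here. The labels do not say whether a line was 1 clone or many, or whether its libraries are independent cultures, so the spread behind each p-value may be no more than technical.

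Libraries held 36580573 to 44420895 counts, and normalised counts are given as CPM, which are counts relative to the library size after TMM scaling. Libraries of a group differed with a common coefficient of variation of 3.38%. The 12 myoblast and satellite cell markers summed to 110 to 119 CPM with GFP, 129 to 134 CPM with DUX4 and 74.0 to 78.0 CPM with DUXC. Most of that was NCAM1, at 86.4, 105 and 55.8 CPM. Next with GFP came MEGF10 at 13.1, DES at 7.15 and ITGA7 at 5.77 CPM. The markers did not move together. MYF5, NCAM1, ITGA7 and CALCR were higher with DUX4 than with GFP, and DES and MEGF10 were lower. PAX7, PAX3, MYF5 and CALCR were higher with DUXC, at 1.13 to 2.64 CPM, and DES, NCAM1, ITGA7 and MEGF10 were lower. The myogenic regulators were scarce, with 1, 9 and 4 counts of MYOD1 in all with GFP, DUX4 and DUXC and 6, 11 and 19 of MYOG. The 10 fibroblast markers summed to 62490 to 66706 CPM with GFP, 38518 to 43194 CPM with DUX4 and 37369 to 38233 CPM with DUXC, sums carried by COL1A1, COL1A2, COL3A1 and FN1. With DUX4, 9 of the 10 were lower and TCF21 was higher. With DUXC, 7 were lower and PDGFRA and FAP higher, PDGFRA going from 373 to 926 CPM. Of all tested genes, 31.9% were lower and 32.9% higher with DUX4, and 42.3% and 40.2% with DUXC. The 8 smooth muscle and pericyte markers summed to 2842 to 3047, 1169 to 1274 and 681 to 708 CPM in the 3 groups. Of these, CSPG4 and MCAM were higher with DUX4, and ACTA2, TAGLN, MYH11, CNN1 and NOTCH3 were lower. MCAM and RGS5 were higher with DUXC, and ACTA2, TAGLN, MYH11, CNN1, NOTCH3 and CSPG4 were lower. The part of these markers in the results was not tested. In such bulk samples, fewer cells of a type and less RNA per cell cannot be told apart. The summed level of 16 proliferation markers was 316 to 330 CPM with GFP, 1333 to 1422 CPM with DUX4 and 591 to 629 CPM with DUXC, and its part in the results below was not tested.

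Against GFP, 5 of the 10 genes were higher with DUX4 (NXF1, NXT2, ALYREF, THOC5 and THOC6) and 1 was lower (THOC2), by the quasi-likelihood test of edgeR with an adjusted p under 0.05. Among all 15956 genes tested, 32.9% were higher and 31.9% lower, 64.8% in either direction. With DUXC, 4 were higher (NXF1, NXT1, ALYREF and THOC1) and 3 lower (DDX39B, THOC2 and THOC7), where 40.2% of all genes were higher and 42.3% lower, 82.5% in either direction. The number of export factor genes that passed was therefore near that of genes in general. In each comparison 2 of the 10, NXF1 and ALYREF, were at least 2-fold higher, against 10.5% of all genes with DUX4 and 21.3% with DUXC. None was at least 2-fold lower, against 5.26% and 7.97% of all genes. No library of one group lay within the range of the other for 6 of the 10 genes with DUX4 (67.0% of all genes) and for 7 with DUXC (83.5%).

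The median log2 fold change of the 10 genes was 0.15 with DUX4 and 0.015 with DUXC, beside 0.0035 and -0.031 for all genes. Compared directly, 5 genes were higher with DUX4 than with DUXC (NXT2, DDX39B, THOC5, THOC6 and THOC7), 4 were lower (NXF1, NXT1, ALYREF and THOC1) and THOC2 did not pass the test (log2 -0.019, adjusted p = 0.629), though it passed as lower with library size alone (log2 -0.12, adjusted p = 0.00419). For all genes the shares were 40.8% and 41.6%, 82.4% in either direction. The 2 genes that were at least 2-fold lower with DUX4 were again NXF1 and ALYREF, against 20.7% of all genes, and none was at least 2-fold higher, against 9.83%. Libraries did not overlap for 9 of the 10 genes, THOC2 being the exception, against 83.0% of all genes.

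**Figure D1:**
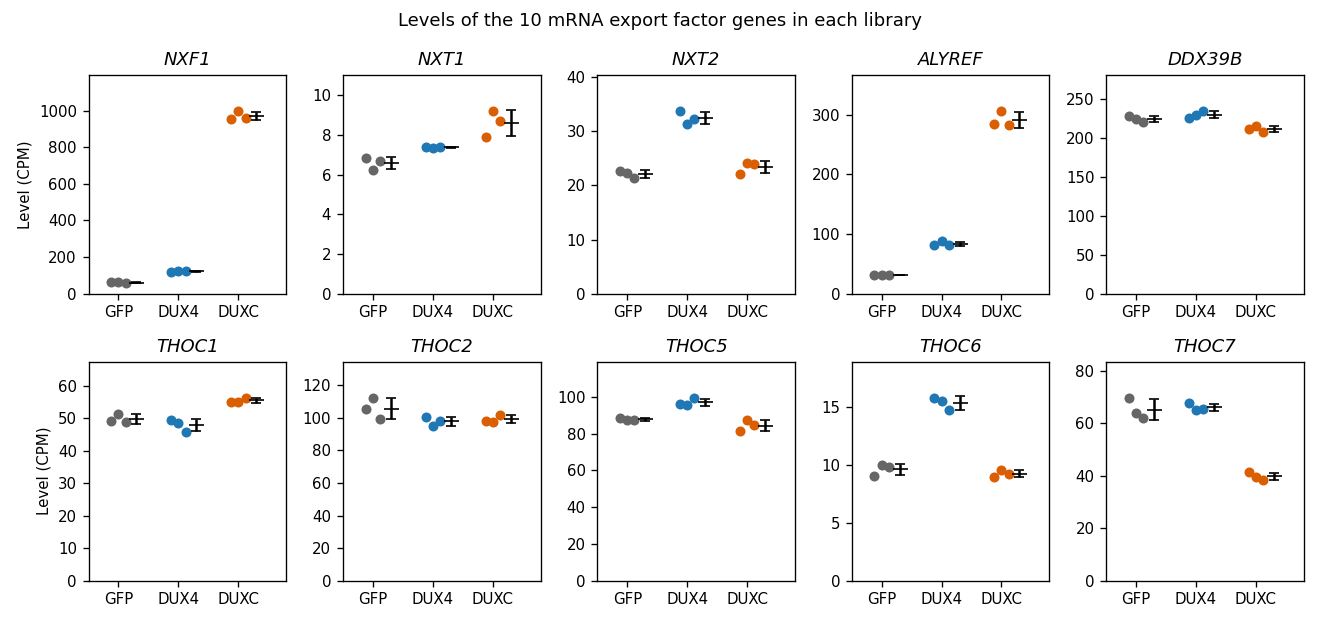
Levels of the 10 export factor genes in CPM (vertical axes, each from 0 and with its own scale) in the 3 libraries of each group; points are libraries and the black marks beside them the mean and SD (n = 3). NXF1 and ALYREF stand far higher with DUXC than in the other groups, THOC7 is lowest with DUXC, and NXT2 and THOC6 are highest with DUX4.

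NXF1 is the main receptor for bulk mRNA export. Its gene lies on chromosome 2 at 8968659 to 8983276 (Sscrofa11.1), with 4 transcripts in RefSeq, which gene counts do not separate. NXF1 stood at 61.8, 62.9 and 58.9 CPM in the GFP libraries, at 121, 122 and 126 CPM with DUX4 and at 954, 996 and 958 CPM with DUXC. All 3 DUX4 libraries were above all 3 GFP libraries, and all 3 DUXC libraries were far above both. The means were 61.2 ± 2.04, 123 ± 2.70 and 969.6 ± 22.9 CPM (SD, n = 3), and behind them were 7270, 15174 and 115217 counts.

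On the log2 scale NXF1 rose by 1.01 (SE 0.033) with DUX4 (adjusted p = 2.32e-30, edgeR) and by 3.99 (SE 0.035) with DUXC (adjusted p = 4.07e-55). The difference between the transgenes was itself tested: the NXF1 level was 7.87-fold lower with DUX4 than with DUXC (log2 -2.98, SE 0.033, adjusted p = 9.49e-51). Among the 8928 tested genes with at least 10 CPM in the GFP cells, the NXF1 change ranked 11 from the top with DUXC and 217 with DUX4. Over all 15956 tested genes, which include many that are scarce in GFP cells, its ranks were 1053 and 1915.

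With DUXC, NXF1 held more counts than the other 9 genes together. Its share of the counts of the 10 genes was 9.12% to 9.36% in the GFP libraries, 15.2% to 15.7% with DUX4 and 54.1% in each of the 3 DUXC libraries. No gene next to NXF1 passed the test as higher. STX5, a syntaxin of Golgi transport whose span ends 145 bp before that of NXF1, fell from 40.9 ± 0.806 CPM with GFP to 32.3 ± 2.17 CPM with DUX4 (log2 -0.34, adjusted p = 1.51e-08) and to 24.8 ± 0.812 CPM with DUXC (log2 -0.72, adjusted p = 1.81e-18). TAF6L, which starts 546 bp after it, had a mean of 10.9 CPM with GFP, 11.9 CPM with DUX4 (adjusted p = 0.129) and 8.89 CPM with DUXC (adjusted p = 0.000696). TMEM223, annotated inside the span of NXF1, had no count in any library.

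**Figure D2:**
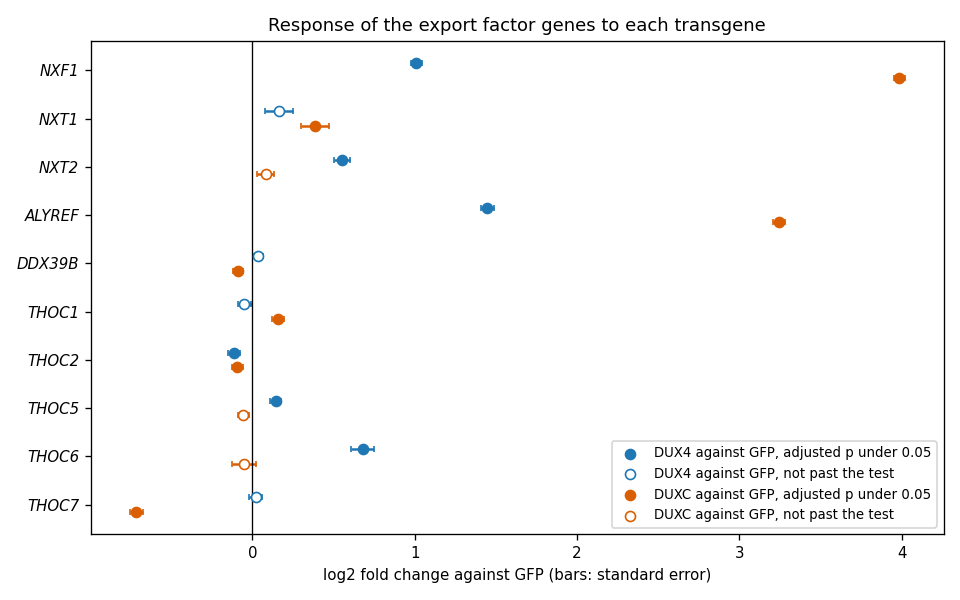
Log2 fold change against GFP of each export factor gene (horizontal axis) with DUX4 (blue) and DUXC (orange); bars are standard errors, and filled points passed the test with an adjusted p under 0.05. NXF1 and ALYREF lie far to the right with DUXC at 3.99 and 3.24, with DUX4 they lie at 1.01 and 1.45, and THOC7 lies at -0.72 with DUXC.

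NXT1 (p15) is the small partner that NXF1 needs to bind nucleoporins, and NXT2 is its paralogue. Levels of NXT1, on chromosome 17 at 30338379 to 30341629, were low, at 6.83, 6.24 and 6.67 CPM with GFP, 7.40, 7.34 and 7.38 CPM with DUX4 and 7.90, 9.18 and 8.69 CPM with DUXC. The groups did not overlap, and they lay in the order GFP, DUX4, DUXC. The rise with DUXC was 1.31-fold (log2 0.39, SE 0.083, adjusted p = 4.82e-05), whereas the difference between DUX4 and GFP missed the threshold (log2 0.16, adjusted p = 0.0878), and passed it with DESeq2 size factors (adjusted p = 0.0476) or with library size alone (adjusted p = 0.0478). NXT1 was lower with DUX4 than with DUXC (log2 -0.22, adjusted p = 0.0119), a call lost without DUXC replicate 2 (adjusted p = 0.0826) or without the filter on low counts (adjusted p = 0.0555).

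NXT2, on chromosome X at 89684733 to 89691808, had the opposite order between the transgenes. It stood at 22.6, 22.3 and 21.3 CPM with GFP, at 33.7, 31.4 and 32.2 CPM with DUX4 and at 22.0, 24.1 and 24.0 CPM with DUXC. The DUX4 libraries were above all others, and the DUXC and GFP libraries overlapped. The rise with DUX4 was 1.47-fold (log2 0.55, SE 0.051, adjusted p = 1.71e-13), and the level was 1.39-fold higher than with DUXC (adjusted p = 8.29e-12). With DUXC the difference from GFP was 0.082 on the log2 scale (adjusted p = 0.146), and under 5 other settings of scaling, filter, tool or samples it was 0.13 to 0.21 and passed.

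Because the changes of NXF1 and of its partners were unequal, the ratios of their counts within a library shifted. There were 9.32 ± 0.663 counts of NXF1 for each count of NXT1 in GFP libraries, 16.7 ± 0.369 in DUX4 libraries and 113 ± 6.65 in DUXC libraries (SD, n = 3). For each count of NXT1 and NXT2 together, there were 2.14 ± 0.056, 3.10 ± 0.130 and 30.4 ± 1.34 counts of NXF1. Such ratios depend on transcript length, so they compare groups and not the numbers of molecules of each gene. The ratio of NXT2 to NXT1 counts was 3.36 ± 0.199 with GFP, 4.39 ± 0.141 with DUX4 and 2.72 ± 0.090 with DUXC, and the ranges of the groups did not overlap.

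**Figure D3:**
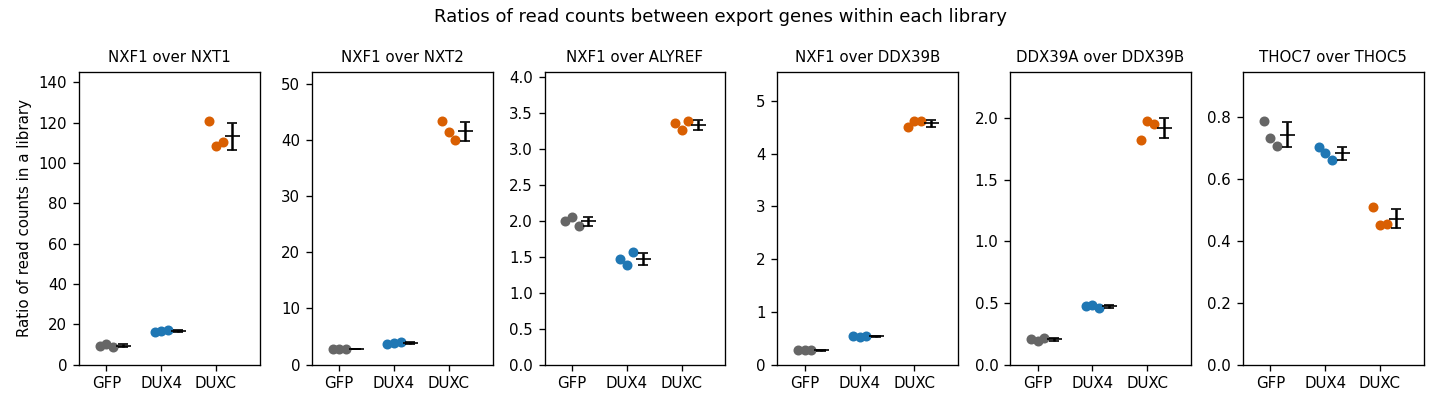
Ratios of read counts between pairs of export genes within each library (vertical axes, each from 0), with points for libraries and black marks for the mean and SD of each group (n = 3). The ratio of NXF1 to NXT1 averages 9.32 with GFP, 16.7 with DUX4 and 113 with DUXC, and the ratio of THOC7 to THOC5 falls from 0.742 with GFP to 0.471 with DUXC.

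ALYREF is the adaptor that binds mRNA beside DDX39B and brings it to NXF1. It lies on chromosome 12 at 1099239 to 1103058. ALYREF stood at 30.9, 30.6 and 30.6 CPM with GFP, at 82.4, 87.7 and 80.9 CPM with DUX4 and at 284, 306 and 283 CPM with DUXC. The 3 groups were separate, in the same order as for NXF1. ALYREF rose 2.73-fold with DUX4 (log2 1.45, SE 0.039, adjusted p = 7.75e-34) and 9.47-fold with DUXC (log2 3.24, SE 0.039, adjusted p = 2.19e-49), and was 3.47-fold lower with DUX4 than with DUXC (adjusted p = 2.2e-40).

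The order of the 2 genes differed between the transgenes. With DUX4 the rise of ALYREF was larger than that of NXF1, and the ratio of NXF1 to ALYREF counts was 1.47 ± 0.084, below the 1.99 ± 0.064 of the GFP libraries. With DUXC it was 3.34 ± 0.068, above them. Among genes with at least 10 CPM in GFP cells, the ALYREF change ranked 101 with DUX4 and 34 with DUXC. The end of the ALYREF span overlaps that of LOC110255935, a locus with no symbol of its own whose level was 4.97 CPM with GFP, 8.29 CPM with DUX4 and 37.0 CPM with DUXC. The strand setting of the counting is not given in the sources used here, so reads of these overlapping genes may be mixed. ANAPC11, whose span ends 5 bp before that of ALYREF, was higher with DUX4 (log2 0.28, adjusted p = 7.45e-07) and with DUXC (log2 0.62, adjusted p = 2.75e-17). ARHGDIA, the nearest tested gene after ALYREF, was higher with DUX4 (log2 0.56, adjusted p = 6.76e-21) and lower with DUXC (log2 -0.98, adjusted p = 9.61e-31).

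DDX39B is the RNA-dependent ATPase of TREX that drives the loading of ALYREF. The gene, on chromosome 7 at 23658089 to 23669095, differed little between groups. Its level was 229, 225 and 221 CPM with GFP, 225, 230.1 and 234 CPM with DUX4 and 212, 216 and 208 CPM with DUXC. The GFP and DUX4 libraries overlapped (log2 0.031, adjusted p = 0.371), and the DUXC libraries were the lowest. The difference of DUXC from GFP was -0.087 on the log2 scale (adjusted p = 0.00842). It did not pass with DESeq2 size factors (adjusted p = 0.785) or with DESeq2 (adjusted p = 0.788). Nor did it with at least 1 CPM in 3 libraries (adjusted p = 0.381) or only the 6 libraries compared (adjusted p = 0.254). With library size alone it turned to 0.038. With that scaling the median of all genes for DUXC against GFP moved from -0.031 to 0.094, so changes of this size cannot be placed on either side of 0.

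DDX39A (URH49), the close paralogue of DDX39B and an alternative helicase for export, changed far more. Its level was 46.5 ± 2.62 CPM with GFP, 109 ± 2.24 CPM with DUX4 and 406 ± 19.8 CPM with DUXC (SD, n = 3). It rose by 1.22 on the log2 scale with DUX4 (adjusted p = 1.08e-28) and by 3.13 with DUXC (adjusted p = 2.28e-44), and was 3.74-fold lower with DUX4 than with DUXC (adjusted p = 1.63e-37). The ratio of DDX39A to DDX39B counts went from 0.207 ± 0.012 with GFP to 0.472 ± 0.012 with DUX4 and 1.92 ± 0.081 with DUXC. The sequences of the paralogues are much alike, and how reads that match both were counted is not given in the sources used here, so the split between them is uncertain.

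These 5 THOC genes encode subunits of THO, the core on which TREX assembles. The summed level of the 5 was 308 to 325 CPM with GFP, 320 to 330 CPM with DUX4 and 285 to 290.0 CPM with DUXC. None of them changed as much as 2-fold. THOC3, also a THO subunit, is not in this sum and is counted below with the further TREX subunits. It was higher with DUX4 (log2 0.19, adjusted p = 0.00322, edgeR) and with DUXC (log2 0.23, adjusted p = 0.000271). THOC7, which pairs with THOC5 in a coiled coil, fell with DUXC. THOC5 and THOC6 rose with DUX4, THOC1 rose with DUXC, and THOC2 passed as slightly lower with both.

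THOC7 lies on chromosome 13 at 45335160 to 45356233. Its level was 69.5, 63.9 and 61.9 CPM with GFP, 67.6, 65.1 and 65.5 CPM with DUX4 and 41.3, 39.3 and 38.4 CPM with DUXC. The DUXC libraries were below all others, and the GFP and DUX4 libraries overlapped. THOC7 fell by 0.72 on the log2 scale with DUXC (SE 0.041, adjusted p = 7.59e-21), and with DUX4 the difference was 0.021 (adjusted p = 0.661). Its level was 1.67-fold higher with DUX4 than with DUXC (adjusted p = 2.07e-21), and the ratio of THOC7 to THOC5 counts was 0.742 ± 0.040 with GFP, 0.681 ± 0.021 with DUX4 and 0.471 ± 0.032 with DUXC.

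THOC6, which in the human complex joins THO units into a larger assembly, lies on chromosome 3 at 39161442 to 39164631. It stood at 9.06, 10.02 and 9.80 CPM with GFP, at 15.8, 15.6 and 14.7 CPM with DUX4 and at 9.01, 9.60 and 9.20 CPM with DUXC. The DUX4 libraries were above all others, and the GFP and DUXC libraries overlapped. THOC6 rose 1.60-fold with DUX4 (log2 0.68, SE 0.068, adjusted p = 3.14e-12) and was 1.66-fold higher than with DUXC (adjusted p = 1.61e-13). HCFC1R1, whose span overlaps that of THOC6, was also higher with DUX4 (log2 0.64, adjusted p = 1.65e-07) and was lower with DUXC (log2 -0.41, adjusted p = 0.00101), and reads of the pair may be mixed.

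THOC5, a subunit known to bind NXF1, lies on chromosome 14 at 46578973 to 46624237. Its level was 88.5, 87.2 and 87.5 CPM with GFP, 96.3, 95.5 and 99.3 CPM with DUX4 and 81.3, 87.2 and 84.4 CPM with DUXC. The DUX4 libraries were the highest, and the highest DUXC library was close to the lowest GFP library. THOC5 rose 1.11-fold with DUX4 (adjusted p = 0.000227) and was 1.15-fold higher than with DUXC (adjusted p = 6.32e-07), while its difference between DUXC and GFP was -0.058 on the log2 scale (adjusted p = 0.116), and passed as lower without the filter on low counts (log2 -0.10, adjusted p = 0.00811).

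THOC1, on chromosome 6 at 106039262 to 106088125, stood at 48.9, 51.3 and 48.8 CPM with GFP, at 49.4, 48.6 and 45.8 CPM with DUX4 and at 55.0, 55.1 and 56.1 CPM with DUXC. The DUXC libraries were above all others, by 1.12-fold over GFP (adjusted p = 0.000318), and the GFP and DUX4 libraries overlapped (adjusted p = 0.271). USP14, a deubiquitinase gene that overlaps the end of THOC1, moved the other way with DUXC, to 0.680 of its GFP level (adjusted p = 5.47e-20).

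THOC2 is the scaffold of THO, on chromosome X at 101170969 to 101284623. Its level was 105, 112 and 99.7 CPM with GFP, 101, 94.8 and 98.1 CPM with DUX4 and 97.9, 97.7 and 102 CPM with DUXC, and the libraries of all 3 groups overlapped. THOC2 passed the test as lower with DUX4 (log2 -0.11, adjusted p = 0.00679) and with DUXC (log2 -0.092, adjusted p = 0.0190). Without GFP replicate 2, its highest library, neither call held (adjusted p = 0.136 and 0.178). The call with DUX4 was also lost without DUX4 replicate 2 (adjusted p = 0.0571) and with DESeq2 (adjusted p = 0.0696). That with DUXC was lost without DUXC replicate 1 (adjusted p = 0.0559) or DUXC replicate 2 (adjusted p = 0.0724). It was lost too with DESeq2 size factors (adjusted p = 0.715) and with DESeq2 (adjusted p = 0.760). The same held with at least 1 CPM in 3 libraries (adjusted p = 0.396) and only the 6 libraries compared (adjusted p = 0.275). With library size alone the difference with DUXC turned to 0.032.

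For DUXC the balance of calls among the 10 genes depended on the scaling: 4 higher and 3 lower with TMM became 5 higher and 1 lower with DESeq2 size factors or library size alone, THOC7 being the gene that still fell. Between the transgenes, 5 higher and 4 lower with DUX4 became 4 higher and 5 lower with library size alone. The calls of NXF1 and ALYREF held in every comparison under all 17 alternatives, with NXF1 between 3.94 and 4.11 on the log2 scale for DUXC against GFP and between 0.98 and 1.03 for DUX4 against GFP.

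**Figure D4:**
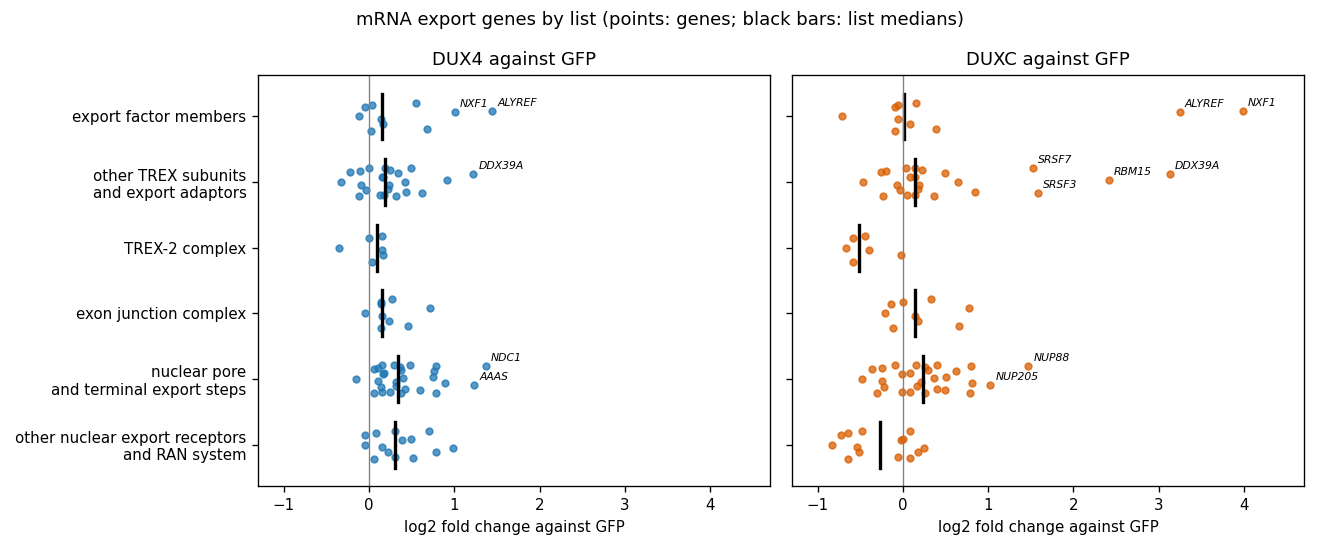
Log2 fold change against GFP (horizontal axis) of every tested gene in the lists of export genes with DUX4 (left) and DUXC (right); points are genes, black bars are list medians, and genes changed at least 2-fold up are named for each transgene. The largest rises with DUXC are NXF1, ALYREF, DDX39A and RBM15, and the medians of the TREX-2 genes and of the other export receptors with the RAN system lie below 0 with DUXC, at -0.51 and -0.27.

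Around these genes, 24 further TREX subunits and export adaptors were listed, and 23 of them tested. With DUX4, 15 were higher and 5 lower (3 lower with DESeq2), with a median log2 fold change of 0.19, where 32.9% of all tested genes were higher and 31.9% lower. With DUXC, 14 were higher and 4 lower, with a median of 0.15, where the shares of all genes were 40.2% and 42.3%. The genes that rose most with DUXC after DDX39A were RBM15, an adaptor of the m6A writer that also binds NXF1, and the splicing factors SRSF3 and SRSF7, which act as export adaptors.

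RBM15 rose from 14.7 ± 0.669 CPM with GFP to 19.6 ± 0.375 CPM with DUX4 (log2 0.42, adjusted p = 1.39e-08) and to 78.3 ± 5.38 CPM with DUXC (log2 2.41, adjusted p = 6.99e-39). SRSF3 rose from 145 ± 1.9 to 204 ± 2.60 and 436 ± 7.50 CPM, by 0.49 and 1.58 on the log2 scale (adjusted p = 1.71e-19 and 1.21e-40). SRSF7 rose from 72.8 ± 1.14 to 138 ± 5.41 and 209 ± 6.34 CPM, by 0.92 and 1.52 (adjusted p = 5.01e-28 and 1.12e-37). All 3 were lower with DUX4 than with DUXC, at -2.00, -1.09 and -0.60 on the log2 scale (adjusted p = 2.54e-36, 2.75e-34 and 5.15e-22).

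SRSF1, another shuttling splicing factor, went in opposite directions. It rose from 159.9 ± 3.69 CPM with GFP to 245 ± 7.12 CPM with DUX4 (log2 0.62, adjusted p = 1.06e-21) and fell to 116 ± 5.58 CPM with DUXC (log2 -0.47, adjusted p = 3.03e-17). The m6A demethylase ALKBH5 did the same, at 0.34 with DUX4 (adjusted p = 4.23e-10) and -0.25 with DUXC (adjusted p = 4.52e-07), and so did ERH, a small nuclear protein, at 0.32 (adjusted p = 4.19e-12) and -0.20 (adjusted p = 4.18e-07). Genes lower with DUX4 included ZC3H11A, a zinc finger protein of TREX (log2 -0.32, adjusted p = 5.81e-13), RBM15B, the paralogue of RBM15 (log2 -0.22, adjusted p = 1.19e-07), and NCBP3, a cap-binding protein (log2 -0.12, adjusted p = 0.00676), a call lost with DESeq2 (adjusted p = 0.0584) and without DUX4 replicate 3 (adjusted p = 0.0514). POLDIP3, an ALYREF-like adaptor, was lower with both transgenes, at -0.10 (adjusted p = 0.00952) and -0.23 (adjusted p = 1.26e-08).

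TREX-2 couples active genes to the nuclear pore. With DUXC, 5 of its 6 genes fell and none rose, where 42.3% of all genes were lower and 40.2% higher, and the median log2 fold change was -0.51. With library size alone, 5 were lower and 1 higher. The scaffold MCM3AP (GANP) fell from 107 ± 1.17 to 71.7 ± 1.54 CPM (log2 -0.58, adjusted p = 3.26e-21), and the centrins CETN2 and CETN3 fell by 0.58 (adjusted p = 5.67e-13) and by 0.67 (adjusted p = 3.66e-16). With DUX4, SEM1, ENY2 and PCID2 were higher by 0.15 to 0.17 and CETN3 was lower (log2 -0.35, adjusted p = 3.57e-08), 3 and 1 of 6 where 32.9% and 31.9% of all genes were, and the median was 0.093. All 6 genes were higher with DUX4 than with DUXC, where the share of all genes was 40.8%.

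Of 9 exon junction complex genes, whose proteins mark spliced mRNA, 8 were higher with DUX4 and none lower, with a median of 0.15, against 32.9% and 31.9% of all genes. With DUXC, 5 were higher and 3 lower, with a median of 0.14, against 40.2% and 42.3% of all genes. With DESeq2 size factors or library size alone, 6 were higher and 1 lower. MAGOHB, a paralogue of the subunit that locks the complex on RNA, rose by 0.72 with DUX4 (adjusted p = 7.7e-18) and by 0.14 with DUXC (adjusted p = 0.0108). PNN, a splicing-associated protein, rose by 0.46 (adjusted p = 6.89e-15) and by 0.78 (adjusted p = 2.16e-23). ACIN1 was higher with DUXC at 290.4 ± 4.51 CPM than with GFP at 184 ± 5.36 CPM (log2 0.66, adjusted p = 1.81e-24), whereas with DUX4 its difference was -0.053 (adjusted p = 0.138).

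Among 28 tested genes of the nuclear pore and the last steps of export, 25 were higher and 1 lower with DUX4, with a median of 0.34, against 32.9% and 31.9% of all genes. With DUXC, 19 were higher and 7 lower, with a median of 0.23, against 40.2% and 42.3%. NDC1 and AAAS, a membrane nucleoporin and the nucleoporin it anchors, rose most with DUX4, by 1.37 (adjusted p = 1.55e-24) and 1.23 (adjusted p = 2.1e-24). With DUXC, NDC1 rose by 0.40 (adjusted p = 9.22e-07) and AAAS fell by 0.30 (adjusted p = 5.83e-05).

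NUP88, a nucleoporin of the cytoplasmic face, rose from 55.1 ± 0.949 CPM with GFP to 71.3 ± 2.46 CPM with DUX4 (adjusted p = 2e-12) and 153 ± 5.28 CPM with DUXC (adjusted p = 2.22e-36). NUP205, of the inner ring, rose by 0.78 with DUX4 (adjusted p = 1.54e-22) and by 1.03 with DUXC (adjusted p = 1.05e-27). DDX19B, a helicase that removes NXF1 from mRNA at the pore, was lower with both, at -0.15 (adjusted p = 0.00226) and -0.36 (adjusted p = 7.74e-10). Its reads may be shared with the close paralogue DDX19A, which was higher with both, at 0.14 (adjusted p = 0.00109) and 0.081 (adjusted p = 0.0417). Between the transgenes, 15 pore genes were higher and 6 lower with DUX4, where 40.8% and 41.6% of all genes were. With library size alone, 10 were higher and 10 lower, and the median of all genes moved from -0.0078 to -0.11.

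The exportins and the RAN system carry proteins and other RNAs and do not depend on NXF1. Of 14 genes, 11 were higher with DUX4 and none lower, with a median of 0.30, against 32.9% and 31.9% of all genes. With DUXC, 3 were higher and 7 lower, with a median of -0.27, against 40.2% and 42.3% of all genes. The number higher was 5 with DESeq2 size factors and 6 with library size alone, with 7 lower in both. RANGAP1, which stimulates GTP hydrolysis by RAN, rose from 25.7 ± 0.391 to 50.9 ± 2.25 CPM with DUX4 (log2 0.99, adjusted p = 3.5e-24) and fell to 16.4 ± 0.577 CPM with DUXC (log2 -0.65, adjusted p = 1.34e-15). The tRNA exportin XPOT rose by 0.084 with DUX4 (adjusted p = 0.0138) and fell by 0.83 with DUXC (adjusted p = 8.1e-29), from 366 ± 6.91 CPM with GFP to 205 ± 5.18 CPM. XPO1, the receptor for proteins with leucine-rich export signals, rose with both, by 0.51 (adjusted p = 5.19e-19) and 0.25 (adjusted p = 2.51e-09).

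Proliferation markers were raised in the same libraries, and their part in these list counts was not tested. With DUX4 all 16 were higher, 15 of them at least 2-fold, with a median log2 fold change of 2.83, where 32.9% of all genes were higher and 10.5% at least 2-fold. With DUXC 13 were higher and 2 lower, with a median of 0.75, against 40.2% and 42.3% of all genes. Compared directly, 14 of the 16 were higher with DUX4 than with DUXC, where 40.8% of all genes were. The exceptions were TOP2A, at 220 CPM with DUX4 and 221 CPM with DUXC, and MCM3, at 51.7 and 56.3 CPM.

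By Pearson r of log2(CPM + 1) over the 9 libraries, the genes with the pattern most like NXF1 were COL11A1, REXO1, TBX3, RSRP1 and RND1. Each had r = 0.999, among 8864 genes with a mean of at least 10 CPM. The libraries form 3 groups, so r here mainly describes the order and relative spacing of 3 group levels and is no test. It does not depend on the size of a change. The rise with DUXC was 3.55-fold for TBX3, 36.1-fold for COL11A1 and 3509-fold for RND1. RND1 had 0.370, 8.62 and 1311 CPM with GFP, DUX4 and DUXC. Its mean thus reached 10 CPM only through the DUXC libraries. The mean of COL11A1 over all libraries also passed 10 CPM only through them, at 3.94, 10.9 and 143 CPM in the 3 groups. REXO1, an RNA exonuclease gene, had 44.0 ± 1.41 CPM with GFP, 104 ± 3.55 CPM with DUX4 and 1047 ± 50.9 CPM with DUXC. RSRP1, an arginine and serine-rich protein gene, had 34.9 ± 3.85, 67.3 ± 2.57 and 499 ± 0.958 CPM. ALYREF ranked 543 in this list, with r = 0.977, and THOC7 had r = -0.952.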

How the data were processed

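Per the labels and the file headers, the authors deposited raw read counts per gene, with Subread named in the column headers; CASAVA 1.9, Trim Galore, featureCounts and build Sscrofa11.1 are from the submitters' processing notes. For other versions, the annotation release and the strand setting, nothing is given in the sources used here. Genes were filtered with filterByExpr by group (15956 of 27339 tested), scaled by TMM (factors 0.960 to 1.06) and fitted over all 9 libraries with the quasi-likelihood pipeline of edgeR 4.0.16 (R 4.3.3, robust), with 2-sided tests and Benjamini-Hochberg adjustment over all tested genes in each of 3 contrasts. SE is the log2 fold change over the square root of F. The export genes and lists were chosen with earlier results of these data known; named in each other list are up to 3 genes per direction and contrast by fold change. Comparisons with GFP share controls. Positions are RefSeq's, matched by symbol for 26838 genes (98.2%). Exon lengths were not used here, so differences in counts or CPM between genes depend also on their lengths. Libraries of a group differed beyond sampling noise (chi-square per degree of freedom 2.71 to 19.3). Alternatives were DESeq2 1.42.0, limma 3.58.1 (voom), other scalings and filters, a replicate block and leaving out each library. Shares of all genes are from the fit with TMM scaling, also where counts from other settings stand beside them. The pipeline was tested on simulated data in which few genes changed, unlike in these data, so that test does not bear on the choice of scaling.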

Additional observations from a re-analysis of the deposited data

How the results depend on the processing

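Under 17 alternatives, 9 of which leave out 1 library each, 470 of the values of the 10 genes kept their direction and their side of the threshold, 9 newly passed, 17 no longer passed and 14 turned sign. The number lower with DUX4 than with GFP was 0 instead of 1 with DESeq2, and 0 to 1 when libraries were left out in turn. The number lower with DUXC was 1 instead of 3 with DESeq2 size factors, library size alone, at least 1 CPM in 3 libraries, DESeq2, and only the 6 libraries compared, and 4 with no filter on low counts, where THOC5 passed (-0.10, adjusted p = 0.00811). Values that turned sign were all small. For DUXC against GFP they were THOC5 0.020 and THOC6 0.025 with DESeq2 size factors and again with DESeq2, THOC5 0.00099 and THOC6 0.0061 with at least 1 CPM in 3 libraries, and DDX39B 0.038, THOC2 0.032, THOC5 0.067, THOC6 0.072 and RNPS1 0.012 with library size alone. For DUX4 against DUXC, THOC2 turned to 0.023 with no filter on low counts, was -0.12 with library size alone (adjusted p = 0.00419) and, with libraries left out, ranged from -0.031 (without DUXC replicate 2) to 0.014 (without DUX4 replicate 2), with 0.0024 without DUXC replicate 3. THOC7 for DUX4 against GFP ranged from -0.015 (without GFP replicate 3) to 0.071 (without GFP replicate 1). Without a filter on low counts, the median of all genes for DUXC against GFP was 0.17. The cause of these changes was not tested. Deviations from the group means correlated at -0.0258 to 0.0318 between same-numbered libraries, so no shared effect of the replicate number was seen. Such values cannot show whether these libraries were prepared as pairs. With the replicate block the 10 genes gave the same counts (5 higher and 1 lower with DUX4, 4 and 3 with DUXC) and NXF1 was at 3.99 with DUXC. Gene counts do not separate transcripts, and NXT1, with 782 to 1022 counts per group, is the least precise of the 10.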
